A study of Rattus norvegicus with 12 samples.

Results

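The genes described here are 10 genes that fat cells (adipocytes) are known for: Adipoq, Lep, Retn, Cidec, Plin1, Plin4, Lpl, Fabp4, Lipe and Pparg. They were listed by name, and a probe was taken for a gene where the accession the array file gives for that probe belongs to the gene's symbol in RefSeq's GRCr8 rat gene table. Of the 10 genes, 8 had a probe, with 2 probes for Lipe and 1 for each other gene, which made 9 probes of 30367 distinct gene probes on the array. Plin1 and Plin4, which coat lipid droplets, matched no probe and have no value here. By the same matching, 17998 probes carried 15154 symbols, and 12369 probes stayed without a symbol.

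Total RNA came from dorsal root ganglia of spinal level L6, clusters of sensory nerve cell bodies beside the spinal cord, of male rats of the inbred strain Fischer 344. Each of 3 groups had 4 one-colour Agilent arrays, and the design text counts 4 rats a group. The group young_AL was 6 months old and ate normal food ad libitum, and the group old_AL was 25 to 28 months old on the same feeding. The group old_CR was also 25 to 28 months old; since the age of 6 weeks it had food on 3 days of each week, which the design text puts at about 40% caloric restriction against old_AL. The labels give no drug, surgery or transgene in any group, and an array's number is the replicate number in its source name.

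Adipocytes store triglyceride in a large lipid droplet, release it as fatty acids when energy is short, and secrete hormones called adipokines. The nuclear receptor that Pparg encodes switches on most of the genes of this program, among them Adipoq, Fabp4, Lpl and Cidec. Fat cells are a known part of the connective tissue around nerves and ganglia. The RNA here is of whole ganglia, so the position of the cells that held these transcripts was not measured, and fewer adipocytes and less RNA per adipocyte cannot be told apart.

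The array old_AL 1 stood apart from the other 11. The 75th percentile of its signal was 7662 against 2634 to 3110 on the others, 71.6% of its gene spots were well above background against 78.8% to 84.1%, and 4369 of its spots were uneven against 1 to 215. Fold changes and tests below are therefore on 11 arrays without it, a choice made with earlier results of these arrays known, and for the 10 genes a value with all 12 is given where it ends a call, turns a sign or differs by over 1.5 times. The young_AL arrays lay in row 2 of 1 slide and had a scan date of their own. On the other slide, old_AL lay in row 1 and old_CR in row 2, with a shared scan date. So age in old_AL against young_AL cannot be told apart from slide, scan and row. In old_CR against young_AL, slide and scan are joined to age and diet. In old_CR against old_AL, row is joined to diet. Raw values below are processed spot intensities averaged over all spots of a probe, flagged ones included. A level is the mean of log2 intensity over the spots without an outlier flag, minus the array's 75th percentile of log2 intensity. A level of 0 thus stands for that percentile.

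Promoters of Adipoq and Retn, the 2 genes of the list with the highest correlation of levels across arrays, are shown because their levels are set side by side below. In the RefSeq GRCr8 promoter table used here, 7 of the 10 genes were matched, the others being Fabp4, Lpl and Lipe. The Adipoq sequence covers chr11:91240170-91240419 on the minus strand and the Retn sequence chr12:6508524-6508773 on the plus strand, each the 250 bases before the transcript start. Capitals mark CCAAT, the CCAAT box, in Adipoq (ATTGG is the same letters on the opposite strand) and AGGTCA, a hexamer that nuclear receptors can bind, in Retn.
Adipoq: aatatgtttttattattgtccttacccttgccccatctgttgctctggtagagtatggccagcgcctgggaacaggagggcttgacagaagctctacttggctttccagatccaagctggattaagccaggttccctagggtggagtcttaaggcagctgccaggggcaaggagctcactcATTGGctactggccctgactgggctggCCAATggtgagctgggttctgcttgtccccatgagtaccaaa
Retn: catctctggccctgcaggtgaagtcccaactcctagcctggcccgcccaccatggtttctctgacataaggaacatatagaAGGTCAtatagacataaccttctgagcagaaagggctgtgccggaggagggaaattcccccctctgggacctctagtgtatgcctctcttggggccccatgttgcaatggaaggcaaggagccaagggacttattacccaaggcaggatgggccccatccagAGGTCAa
The Adipoq promoter held CCAAT with its first base at -42 and ATTGG at -69 from the start, and the Retn promoter held AGGTCA at -169 and -7. The search on both strands was for CCAAT, for AGGTCA and for TATAAA, which do not contain one another, in windows from 250 bases before to 50 after a start. CCAAT was in 4 of the 7 genes' promoters and in 37.5% of 33469 promoters in the table. AGGTCA was in 1 of 7, Retn, against 16.2%, and TATAAA in 1 of 7, Pparg, against 14.2%. A gene counted if any of its starts held the letters, while the shares are per promoter, so the units differ. Plin4 and Pparg had more than 1 start, and Pparg held CCAAT and TATAAA at different starts. These matches describe the letters only.

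Adipoq encodes adiponectin, a hormone that adipocytes secrete. Its probe was well above background on none of 4 young_AL arrays, on 1 of 4 old_AL arrays and on all 4 old_CR arrays. The processed intensities were 4.86, 6.03, 5.49 and 4.27 on young_AL 1 to 4. They were 20.6, 5.81, 54.1 and 18.0 on old_AL 1 to 4, where only old_AL 3 was well above background. They were 32.7, 51.6, 118 and 73.3 on old_CR 1 to 4. Every old_CR array was above every young_AL array, while old_AL 3 lay inside the old_CR range and old_AL 2 was as dim as the young arrays. All of these values are low for the array: the lowest intensity of a single spot called well above background was 15.6 to 33.3 on the 11 arrays and 101 on old_AL 1.

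Adipoq was higher in old_CR than in young_AL by 3.62 on the log2 scale (SE 0.64, 95% interval 2.18 to 5.06, limma adjusted p = 0.0269, 4 against 4 arrays). A gene was tested if well above background on at least 4 of the 11 arrays. Adipoq met this only through old arrays, 4 of old_CR and 1 of old_AL. Its p thus rests in part on the arrays that let it into the test. Since the probe was not well above background on any young_AL array, the size of the rise is known only as an approximate bound. Set against the lowest spot well above background on each young array, the old_CR mean was 3.46-fold higher. This reference is not a strict limit. On young_AL 1 a Cidec spot at 17.4 was not well above background, though the lowest spot called so there read 15.6. The group means of the levels were -9.21 ± 0.19 (SD, n = 4) in young_AL, -7.27 ± 1.67 (SD, n = 3) in old_AL and -5.58 ± 0.83 (SD, n = 4) in old_CR. Adipoq in old_AL against young_AL differed by 1.94 (SE 0.69, limma adjusted p = 0.144), and in old_CR against old_AL by 1.69 (SE 0.69, limma adjusted p = 0.166), so neither step passed the test. Of the 3 old_AL arrays used, only old_AL 3 had Adipoq well above background, so these 2 differences are fitted values and no fold or bound is drawn from them. With all 12 arrays the old_CR against young_AL difference was the same 3.62 but the limma adjusted p was 0.257. After normexp background correction that difference was 0.91 with limma adjusted p = 0.0679. The old_CR against old_AL difference was 0.096 after the same correction. That correction added an offset of 50, which shrinks log2 differences of dim probes. The call also ended with the replicate number as a block (limma adjusted p = 0.0809). That number does not pair the arrays, and the block costs degrees of freedom. The call ended too in 8 of 11 fits that each left out 1 array. Those 8 lacked a young_AL or an old_CR array, and over the 11 fits the limma adjusted p ran from 0.0131 to 0.0827.

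**Figure D1:**
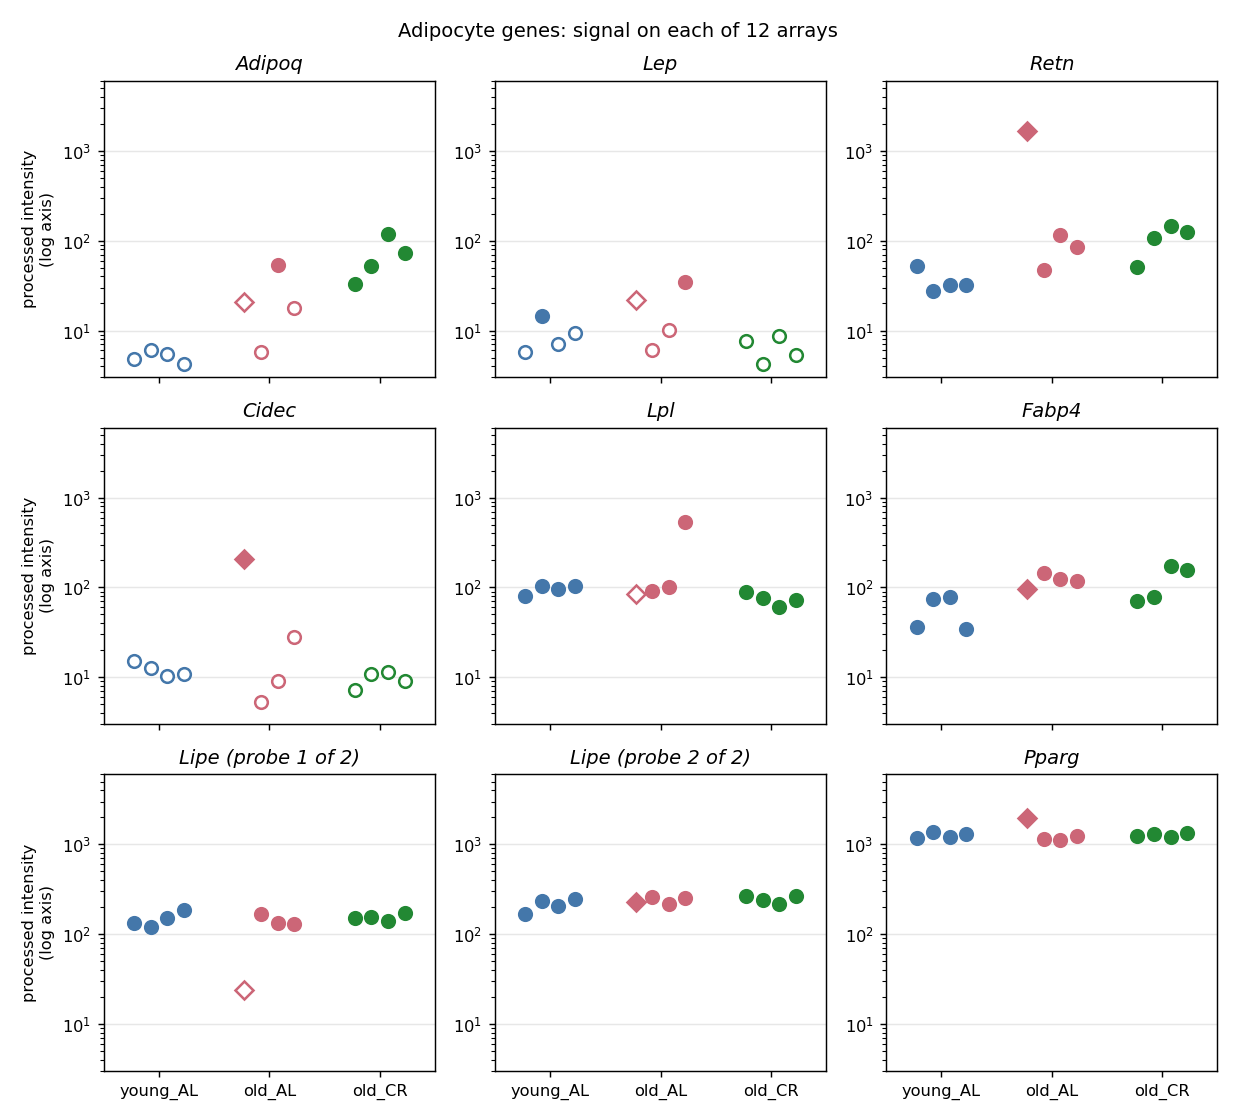
Processed intensity (log axis) of each of the 9 probes on each of 12 arrays, by group. Filled symbols are well above background, open symbols are not, and the diamond is old_AL 1. Adipoq was well above background on all 4 old_CR arrays and on no young_AL array, while Pparg lay between 1127 and 1375 on every array but old_AL 1.

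Retn encodes resistin, an adipokine of rodent fat cells. It was well above background on 12 of 12 arrays. Its intensities were 51.8, 27.4, 32.3 and 32.0 on young_AL 1 to 4, and 1666, 47.1, 116 and 84.4 on old_AL 1 to 4. On old_CR 1 to 4 they were 50.7, 107.4, 146 and 126. The highest young array, young_AL 1, lay above the lowest array of each old group, old_AL 2 and old_CR 1, so the groups overlapped. The difference was 1.29 (SE 0.44, limma adjusted p = 0.129) for old_AL against young_AL and 1.52 (SE 0.41, limma adjusted p = 0.0850) for old_CR against young_AL. For old_CR against old_AL it was 0.24 (SE 0.44, 95% interval -0.75 to 1.22, limma adjusted p = 0.7503), and it turned to -0.49 when old_AL 1 was kept, with 2.02 by age. Retn passed the test in none of these comparisons on 11 arrays.

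Lep encodes leptin, the hormone by which fat stores signal to the brain. It was well above background on 2 of 12 arrays, young_AL 2 and old_AL 4, in 1 of its 2 spots on each. Its intensities were 5.72, 14.7, 7.11 and 9.46 on young_AL 1 to 4, 21.7, 6.13, 10.1 and 34.8 on old_AL 1 to 4, and 7.60, 4.27, 8.66 and 5.40 on old_CR 1 to 4. It was well above background on no old_CR array, where Adipoq was well above background on all 4. The brighter of the Lep spots was up to 6.05 times the dimmer one on the same array. Lep did not pass the filter, well above background on at least 4 of the 11 arrays, and was not tested.

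Cidec encodes a protein that enlarges lipid droplets by joining them. It was well above background on old_AL 1 alone, at an intensity of 208, and 1 of its 2 spots there carried an outlier flag. The other intensities were 15.3, 12.6, 10.2 and 10.9 on young_AL 1 to 4, 5.33, 8.999 and 28.2 on old_AL 2 to 4, and 7.20, 10.8, 11.5 and 9.06 on old_CR 1 to 4. Cidec was thus well above background on none of the 11 arrays used for testing, and it was not tested. With Lep and Cidec at or near background, and Plin1 and Plin4 without a probe, the adipocyte label rests here on Adipoq and Retn, since Lpl, Fabp4, Lipe and Pparg are also known in other cell types (muscle, macrophages, endothelium).

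Lpl encodes lipoprotein lipase, which frees fatty acids from circulating triglyceride, and its probe has 10 spots on each array. It was well above background on every array but old_AL 1. Intensities were 80.8, 104, 96.5 and 104 on young_AL 1 to 4, 85.1, 92.1, 99.9 and 533 on old_AL 1 to 4, and 88.1, 76.9, 60.0 and 73.2 on old_CR 1 to 4. The high value of old_AL 4 came from spots that carried an outlier flag: its spots ranged from 54.7 to 4418, 2 of them were flagged, and without those its level was -5.41, inside the range of old_CR. With flagged spots left out, the levels ran from -5.12 to -4.88 in young_AL and from -5.51 to -5.29 in old_CR, so these groups did not overlap. The difference of -0.43 (SE 0.13, 95% interval -0.72 to -0.14, limma adjusted p = 0.118) did not pass the test. It passed without old_AL 4 (limma adjusted p = 0.0299), an array of neither group that enters through the shared estimate of spread, and with all 12 arrays weighted by quality (limma adjusted p = 0.0129). Lpl differed by -0.10 (SE 0.14, limma adjusted p = 0.697) in old_AL against young_AL and by -0.33 (SE 0.14, limma adjusted p = 0.172) in old_CR against old_AL, which with all 12 arrays became -0.47 and 0.04.

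Fabp4 encodes the fatty acid binding protein of adipocytes, which macrophages and capillary endothelium also make. It was well above background on all 12 arrays. Intensities were 36.4, 74.0, 77.6 and 34.6 on young_AL 1 to 4, 96.1, 146, 126 and 117 on old_AL 1 to 4, and 70.4, 77.6, 174 and 157 on old_CR 1 to 4. Young_AL and old_CR each held a lower pair and a higher pair of arrays, and the lower pair of old_CR was about as bright as the higher pair of young_AL. Without old_AL 1, old_AL was above every young array. Fabp4 differed by 1.44 (SE 0.42, 95% interval 0.51 to 2.38, limma adjusted p = 0.0891) in old_AL against young_AL. It differed by 1.08 (SE 0.39, limma adjusted p = 0.174) in old_CR against young_AL and by -0.36 (SE 0.42, limma adjusted p = 0.596) in old_CR against old_AL. None of the 3 passed the test. With all 12 arrays the difference by age was 0.94 and that by diet turned to 0.15.

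Lipe encodes hormone-sensitive lipase, which splits stored lipid. Its brighter probe, the one tested, read 168, 231, 207 and 246 on young_AL 1 to 4, 230, 258, 219 and 253 on old_AL 1 to 4, and 266, 238, 215 and 264 on old_CR 1 to 4. The other probe read 132, 121, 150 and 184 on young_AL 1 to 4, 23.8, 167, 134 and 131 on old_AL 1 to 4, and 152, 155, 139 and 171 on old_CR 1 to 4, and old_AL 1 was the only array where it was not well above background. The brighter probe differed by 0.32 (SE 0.09, 95% interval 0.12 to 0.53, limma adjusted p = 0.0863) in old_AL against young_AL, with every old_AL array of the 11 above the young arrays in level. The dimmer probe differed there by 0.11 with overlapping groups, so the probes did not show the same separation. For old_CR against young_AL the brighter probe differed by 0.20 (SE 0.09, limma adjusted p = 0.254), and for old_CR against old_AL by -0.12 (SE 0.09, limma adjusted p = 0.405). With old_AL 1 kept, the difference by age turned to -0.07 and that by diet to 0.28.

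Pparg, the regulator of the program, had the smallest SD between arrays of a group among the 9 probes, in each group on 11 arrays. Its intensities were 1171, 1375, 1220 and 1299 on young_AL 1 to 4, 1979, 1137, 1127 and 1241 on old_AL 1 to 4, and 1225, 1298, 1203 and 1353 on old_CR 1 to 4. The levels were -1.21 ± 0.04 (SD, n = 4) in young_AL, -1.21 ± 0.04 (SD, n = 3) in old_AL and -1.22 ± 0.05 (SD, n = 4) in old_CR, and all groups overlapped. The 95% intervals of the difference on 11 arrays ran from -0.08 to 0.10 for old_AL against young_AL, from -0.11 to 0.07 for old_CR against old_AL and from -0.09 to 0.07 for old_CR against young_AL. Its limma adjusted p was 0.923, 0.783 and 0.905, in the same order. The array old_AL 1 was at -1.96, and with it the difference was -0.18 by age and 0.17 by diet. The sign of these small differences turned with the scaling.

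**Figure D2:**
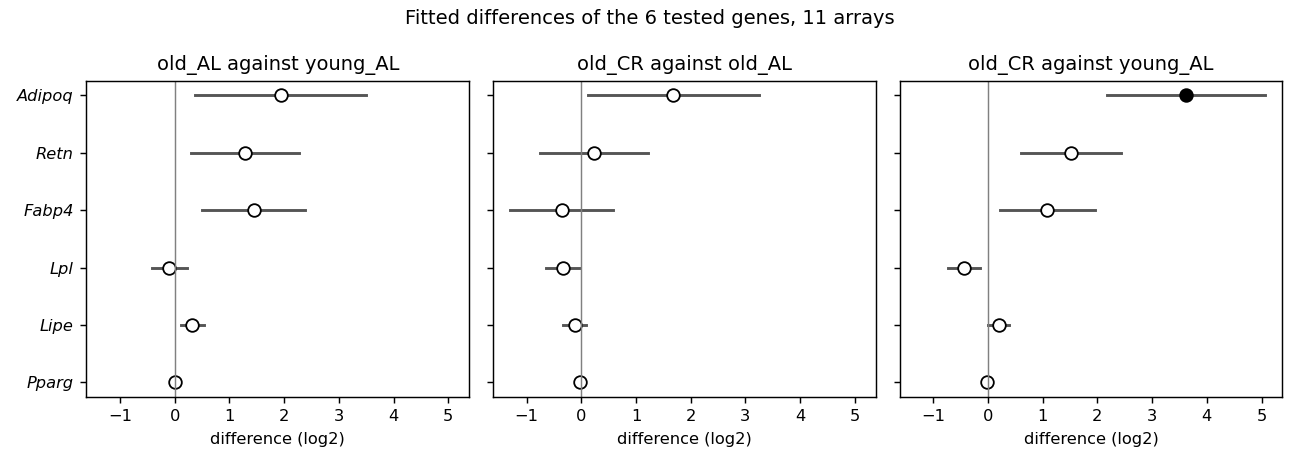
Fitted difference (log2) with its 95% interval for the 6 tested genes in each of 3 comparisons on 11 arrays. Filled points passed the limma test at an adjusted p of 0.05, which held for Adipoq in old_CR against young_AL alone. Adipoq entered the test only through old arrays and was not well above background on any young_AL array.

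The comparison of old_AL with young_AL asks what age does under free feeding. Of the 6 genes tested, 0 passed limma's test at an adjusted p of 0.05, where 3.24% of 20849 genes did, and 4 of the 6 had an unadjusted p under 0.05, as had 23.1% of all genes. The median difference of the 6 was 0.80, against 0.03 over all genes tested. The levels of Adipoq, Fabp4 and the brighter Lipe probe were higher in every old_AL array of the 11 than in any young_AL array. The order of Adipoq rests partly on arrays at background, since its intensity was 5.81 on old_AL 2 but 6.03 on young_AL 2. The dimmer Lipe probe overlapped between these groups. The share of all genes with old_AL wholly above young_AL was 11.9%, and 7.67% lay wholly below. Adipoq entered the test only through old arrays, so these counts do not stand for all 10 genes. With all 12 arrays 0 of 6 passed limma's test at a background of 0.0191%, with 2 at an unadjusted p under 0.05 (6.71% of all genes) and a median of 0.43. After normexp 4 of the 6 passed limma's test, Adipoq by 0.82, Retn by 0.64, Fabp4 by 0.85 and Lipe by 0.32 (adjusted p 0.0437, 0.0459, 0.0235 and 0.0112), where 3838 of all genes did.

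The comparison of old_CR with old_AL asks what the restricted feeding does at old age, and it lies within 1 slide. Of the 6 genes, 0 passed limma's test, where 1.06% of all genes did, and 2, Adipoq and Lpl, had an unadjusted p under 0.05, as had 26.4% of all genes. The median was -0.07, against -0.05 over all genes. No gene of the 6 had groups that did not overlap, where 8.24% of all genes were wholly higher and 15.3% wholly lower in old_CR. With all 12 arrays 0 of 6 passed limma's test at a background of 0.00478%, with 1 at an unadjusted p under 0.05 (5.96% of all genes) and a median of 0.16. After normexp Lpl at -0.32 and Lipe at -0.22 passed limma's test (adjusted p = 0.0083 and 0.0343), where 4732 of all genes did.

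The comparison of old_CR with young_AL joins age and diet, and it shares its arrays with the other 2 comparisons. Adipoq was the 1 gene of 6 that passed limma's test, where 2.41% of all genes did, and 5 of the 6 had an unadjusted p under 0.05, as had 18.3% of all genes. The median was 0.64, against -0.02 over all genes. Adipoq was wholly higher in old_CR, as were 5.59% of all genes, and Lpl wholly lower, as were 10.2%. Adipoq passed the filter only through old arrays, 4 of old_CR and 1 of old_AL, so its call, its place among the wholly higher genes and the median do not stand for all 10 genes. With all 12 arrays 0 of 6 passed limma's test at a background of 0.0191%, with 2 at an unadjusted p under 0.05 (2.72% of all genes), and the median was also 0.64. The split of calls over all genes moved with the scaling: calls that were higher made up 61.5% by age and 25.2% by diet here, 22.9% and 69.5% after quantile normalization, 13.1% and 86.7% after centring on the median, and 86.3% and 10.69% after normexp.

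Across the 11 arrays Retn followed Adipoq most closely among the tested members, with a Pearson r of 0.897 and a Spearman rho of 0.827 between the levels. The r was 0.841 without the 2 arrays farthest from the median of Adipoq, and 0.813 over the 7 old arrays alone. Adipoq was not well above background on 6 of the 11 arrays, the 4 of young_AL and old_AL 2 and 4, so the order among those 6 has no meaning. These arrays also share their groups and a slide, so the values describe this set only. Fabp4 had an r of 0.634 with Adipoq over 11 arrays and 0.06 over the 7 old arrays. Lpl had an r of -0.592, Lipe 0.292 and Pparg 0.09 over the 11 arrays. Among the old arrays the brighter Lipe probe, the one tested, ran opposite to Adipoq, with an r of -0.888. The other Lipe probe was not read in this way.

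**Figure D3:**
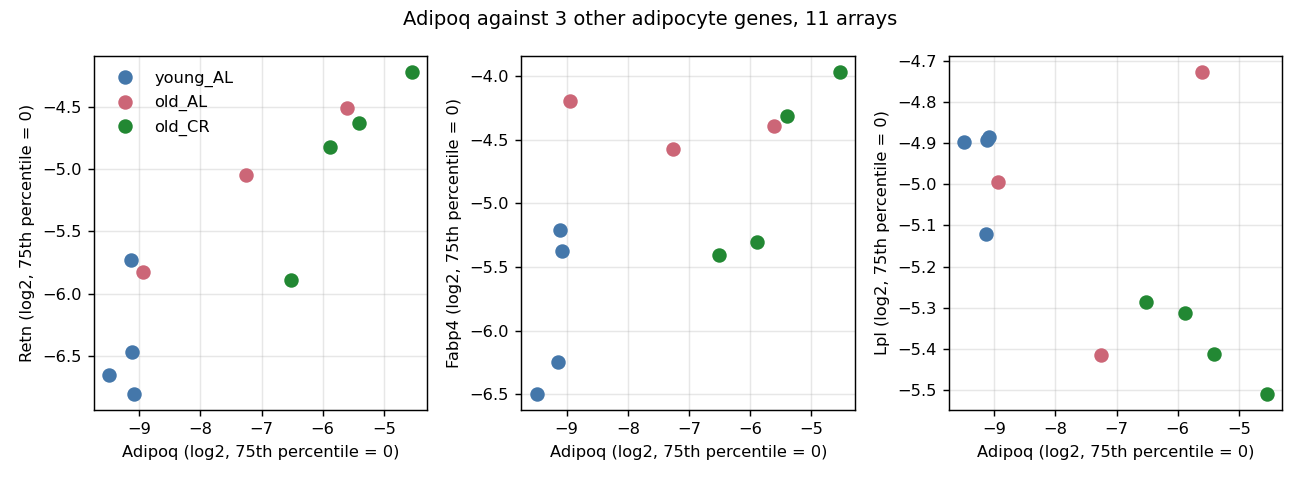
Level of Retn, Fabp4 and Lpl (log2, 0 is the array's 75th percentile) against the level of Adipoq, 1 point per array for 11 arrays, coloured by group. Among the 7 old arrays the r with Adipoq was 0.813 for Retn and 0.06 for Fabp4.

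The 5 genes outside the list whose levels had the highest Pearson r with Adipoq over the 11 arrays, among 12366 genes with a symbol, were Enpp2 at 0.908, Npy5r at 0.888, Taf7 at 0.879, Tac4 at 0.877 and Alg11 at 0.870. Retn, at 0.897, took the second rank among them. Enpp2 encodes autotaxin, a secreted enzyme that makes lysophosphatidic acid. Npy5r encodes a receptor for neuropeptide Y, and Tac4 a tachykinin precursor. These genes were chosen for a pattern like that of Adipoq, so no test of them is given. The r values are a description, since Adipoq lay at background on 6 of the 11 arrays.

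Other genes of the adipocyte program came from 7 lists with 79 genes, of which 68 had a probe and 59 were tested. Of the 59, 2 rose and 2 fell in old_AL against young_AL, 1 rose and 2 fell in old_CR against old_AL, and 3 rose and 5 fell in old_CR against young_AL. The shares were 6.78%, 5.09% and 13.6%, beside 3.24%, 1.06% and 2.41% of all genes, and the median differences were 0.04, -0.04 and -0.02, against 0.03, -0.05 and -0.02 over all genes. Of these 15 calls, 0 held with all 12 arrays and 0 with the replicate block. With the compared groups alone 9 held, without a filter on dim probes 9, and with probes of a gene averaged 12. Median centring and quantile normalization each kept 13, and normexp kept 14. All 15 held with array weights and with a filter on every array. No gene of the lists for lipolysis (9 tested), fatty acid uptake (7 tested) and triglyceride synthesis (9 tested) passed limma's test in any comparison on 11 arrays. Of these 25 genes, 7, 6 and 7 had an unadjusted p under 0.05 in the 3 comparisons, in the order above, where 23.1%, 26.4% and 18.3% of all genes had one.

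Among the 9 tested adipokines and other secreted proteins, Cfd, which encodes adipsin, a complement protease that adipocytes secrete, rose by 1.99 in old_AL against young_AL (SE 0.22, limma adjusted p = 0.0081). Cfd was also higher in old_CR than in young_AL, by 1.09 (SE 0.21, limma adjusted p = 0.0319), and its difference of -0.90 in old_CR against old_AL did not pass (SE 0.22, limma adjusted p = 0.0690). The rise of Cfd by age was 1.53 with all 12 arrays (limma adjusted p = 0.468), and its limma adjusted p was 0.0914 with the compared groups alone. Where Adipoq had its highest group mean in old_CR, Cfd had it in old_AL, and neither gene's difference between these groups passed the test. Angptl4, an inhibitor of lipoprotein lipase, fell by 0.49 in old_CR against old_AL (SE 0.08, limma adjusted p = 0.0408) and by 0.45 against young_AL (SE 0.08, limma adjusted p = 0.0237). Rarres2, the chemerin gene, fell by 0.32 and Apln, the apelin gene, by 0.57 in old_CR against young_AL, with limma adjusted p of 0.0340 and 0.0354. Angptl4, and Klf15 below, are named after their values were seen.

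Of the 8 tested lipid droplet genes, Cidea, a relative of Cidec, rose by 0.55 in old_CR against young_AL (SE 0.08, limma adjusted p = 0.0165). Cavin2, a coat protein of caveolae, fell by 0.21 there (SE 0.05, limma adjusted p = 0.0493). Beyond the settings with all 12 arrays and the block, that call of Cavin2 was lost under 5 more, with limma adjusted p from 0.0513 after normexp to 0.0992 after quantile normalization. Fitm2, which encodes a protein of the endoplasmic reticulum that helps droplets form, fell by 0.22 in old_AL against young_AL (SE 0.03, limma adjusted p = 0.0148) and was higher by 0.20 in old_CR than in old_AL (SE 0.03, limma adjusted p = 0.0336). Both Fitm2 differences turned sign with all 12 arrays, to 0.07 and -0.09. With its 2 probes averaged they were -0.16 and 0.195, and neither passed (limma adjusted p = 0.0706 and 0.0586). Among the 9 tested regulators, Nr1h3, a sterol-sensing nuclear receptor, rose by 0.37 in old_AL against young_AL (SE 0.05, limma adjusted p = 0.0174). It fell by 0.48 in old_CR against old_AL (SE 0.05, limma adjusted p = 0.0251). Klf15, a transcription factor of the adipocyte program, rose by 0.69 in old_CR against young_AL (SE 0.15, limma adjusted p = 0.0478, and 0.0551 after quantile normalization). Mest, a gene tied to adipocyte size, fell by 0.46 in old_AL against young_AL and by 0.31 in old_CR against young_AL, with limma adjusted p of 0.0104 and 0.0206.

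Among the 68 genes with a probe, 9 did not pass the filter, and 3 of these, Plin5, Pck1 and Orm1, were well above background on 0 of 12 arrays. Adrb3, the beta adrenergic receptor typical of rodent adipocytes, was well above background on 4 arrays, at intensities of 347 on old_AL 1, 103 on old_AL 3, 18.4 on old_CR 2 and 23.5 on old_CR 3. Car3, an abundant carbonic anhydrase of fat and muscle, was well above background on old_AL 1 at 525, on old_CR 3 at 20.5 and on old_CR 4 at 21.9. Neither was well above background on any young_AL array. Hcar1, a lactate receptor of adipocytes, was well above background on young_AL 1 at 14.1, young_AL 3 at 13.0 and old_AL 4 at 32.1. Itln1, which encodes omentin, was so on young_AL 2 at 30.2 and old_AL 1 at 136. Cebpa, a transcription factor of the adipocyte program, was so on young_AL 4 at 18.2, old_AL 3 at 179 and old_AL 4 at 212. Aqp7, a glycerol channel, was so on old_CR 2 alone, at 14.5. The arrays with a signal thus differed from gene to gene. These 9 genes were named after their values were seen, and none was tested.

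**Figure D4:**
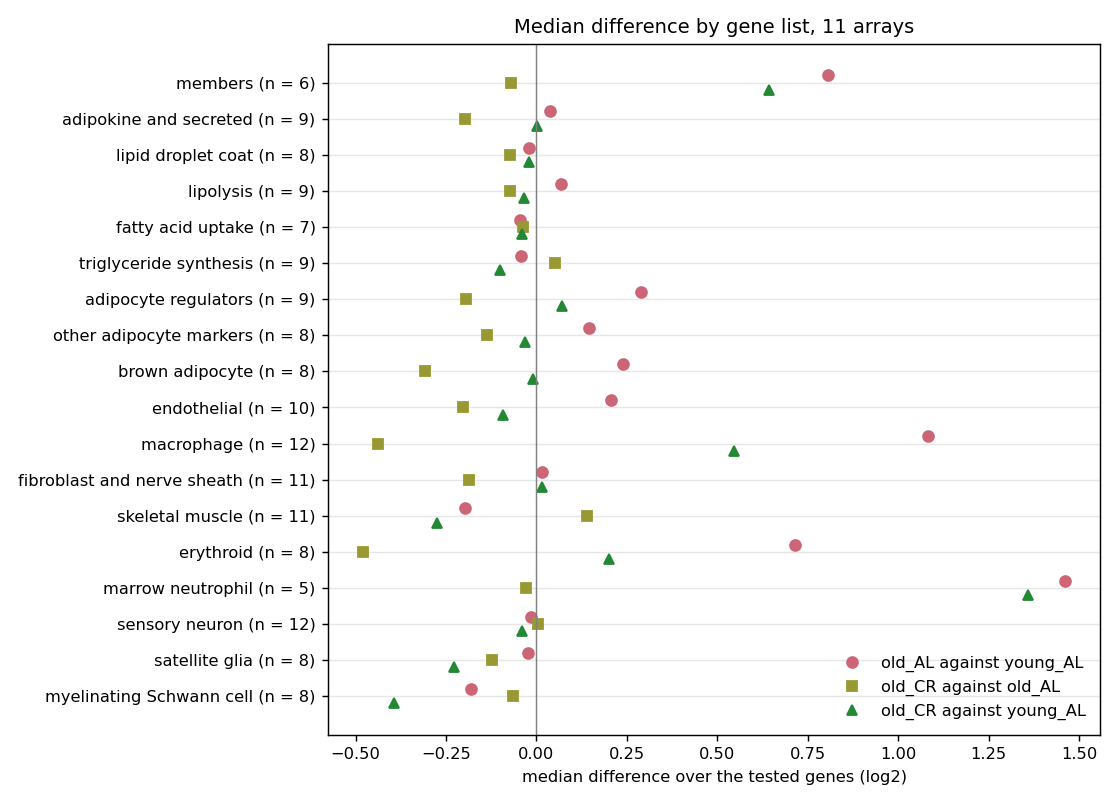
Median difference (log2) over the tested genes of each list, 1 symbol per comparison on 11 arrays, with the number of tested genes beside each list. The 6 adipocyte genes described here had medians of 0.80, -0.07 and 0.64, and the lists for droplet coat, lipolysis, fatty acid uptake and triglyceride synthesis stayed near 0. In old_AL against young_AL and in old_CR against old_AL the medians were 0.29 and -0.19 for adipocyte regulators. They were 0.15 and -0.14 for other adipocyte markers, and 0.04 and -0.20 for adipokines and secreted proteins.

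Markers of other cells that a ganglion sample can hold were read beside these genes. Of 12 macrophage genes, 4 rose in old_AL against young_AL with a median of 1.08, and 2 rose in old_CR against young_AL with a median of 0.55, by limma on 11 arrays (0 held with the replicate block or with all 12). The shares of all genes called in these comparisons, in either direction, were 3.24% and 2.41%, and they stand beside each list below too. Their summed level, in units of the 75th percentile, was 8.03 to 11.3 in young_AL, 12.7 to 18.0 in old_AL and 10.4 to 13.8 in old_CR. This sum reached its highest values in old_AL, but the ranges of old_AL and old_CR overlapped. In old_CR against old_AL 0 of the 12 macrophage genes passed limma's test. On 11 arrays Fabp4 and Cfd also had their highest group mean in old_AL, while Adipoq had it in old_CR. Fabp4, Cfd and Adipoq did not pass limma's test in old_CR against old_AL (adjusted p = 0.596, 0.0690 and 0.166). Of 5 tested marrow neutrophil genes, 2 rose in old_AL against young_AL (median 1.46) and 1 in old_CR against young_AL (median 1.36). With all 12 arrays 0 of these 3 calls held by limma, and with the replicate block only Camp by age did. Of 10 endothelial, 11 skeletal muscle and 8 erythroid genes, 0 passed limma's test in any comparison, with 8, 10 and 3 of these 29 at an unadjusted p under 0.05 by comparison, against 23.1%, 26.4% and 18.3% of all genes. The medians of the 3 lists in old_AL against young_AL were 0.21, -0.20 and 0.72, against 0.03 over all genes. In old_CR against old_AL they were -0.20, 0.14 and -0.48, against -0.05. In old_CR against young_AL they were -0.09, -0.27 and 0.20, against -0.02. Of 8 tested brown adipocyte genes, 1, Elovl6, a fatty acid elongase, fell by 0.47 in old_AL against young_AL (SE 0.05, limma adjusted p = 0.0042) and by 0.35 in old_CR against young_AL (SE 0.04, limma adjusted p = 0.00995). Both Elovl6 calls were lost with all 12 arrays (-0.37 by age, limma adjusted p = 0.501) and with the replicate block (0.0529 and 0.0809), and the call by age with the compared groups alone (0.0595). Ucp1, the defining gene of brown fat, was well above background on 6 of 12 arrays, 3 of them young_AL. The part of these cells in the values of Fabp4, Lpl and Retn was not tested.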

How the data were processed

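Total RNA labelled with Cy3 was measured on 12 one-colour Agilent arrays, 4 for each of 3 groups. The deposited values are linear spot intensities made with Agilent Feature Extraction 10.7 per the submitters' processing notes. Per the file headers, the authors' software had subtracted background from the processed intensity, and arrays had not been scaled to each other. The deposited table of the whole series held the same intensities, with a largest difference of 0. Probes were named through RefSeq's GRCr8 table, used for names because its assembly is not the build of the files.

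Control spots and spots with an outlier flag were left out, and saturated spots were kept. Each array's 75th percentile of log2 intensity was subtracted from log2 of each spot, and these values were averaged over the spots of a probe. The files' flag for a signal well above background had to hold for at least 50% of a probe's spots. The brightest probe of a gene was tested if well above background on at least 4 of 11 arrays. limma 3.58.1 in R 4.3.3 (lmFit, eBayes, one mean per group, old_AL 1 left out) gave p-values, adjusted by Benjamini-Hochberg over 20849 genes at a threshold of 0.05, and its script was tested on simulated data. Normexp (offset 50) used median spot signals. Bounds used the lowest spot well above background on each array of the dim group, or the probe's own value where higher. The number of arrays limits the precision. The members and lists were chosen with earlier results of these data known. Named genes are the 10 members, up to 4 genes per other list with the smallest p in old_AL against young_AL, and the 5 genes most correlated with Adipoq. The replicate numbers do not pair the arrays: 0 of 10 pairs with the same number correlated over 0.1 in their deviations from group means (r from -0.09 to 0.09). A block on these numbers costs degrees of freedom, so calls can be lost under it through lower power.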

Additional observations from a re-analysis of the deposited data

Results flagged for a closer look

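In 27 sets of 4 arrays (9 probes in 3 groups), 7 held an array whose gap to its nearest neighbour was a larger share of the range than Dixon's 95% critical value for 4 samples, where chance gives about 1 in 20. Of these, 4 were old_AL 1: Fabp4 at a level of -6.41 against -4.57 to -4.20 on the other old_AL arrays, the dimmer Lipe probe at -8.34 against -4.40 to -4.01, the brighter Lipe probe at -5.07 against -3.59 to -3.38, and Pparg at -1.96 against -1.24 to -1.16. The other 3 were Adipoq on young_AL 4 at -9.49 against -9.14 to -9.08, where the probe was not well above background on any array of the group, Lpl on young_AL 1 at -5.12 against -4.90 to -4.88, and the dimmer Lipe probe on old_CR 4 at -4.19 against -4.31 to -4.29.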

How the results depend on the processing

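With 3 or 4 arrays a group and Adipoq near background, small differences could not be resolved here, and 4 of the 10 genes were not tested (Lep and Cidec by the filter, Plin1 and Plin4 without a probe). Among the 6 tested genes, the count that passed by age (0) became 4 after normexp, the count by diet (0) became 1 with all 12 arrays weighted and 2 after normexp. The count for old_CR against young_AL (1) became 0 with all 12 arrays, after normexp, with a filter on every array (which leaves Adipoq untested) and with the replicate block, 2 with the compared groups alone and 3 with array weights. Leaving out 1 array at a time gave 0 to 0, 0 to 0 and 0 to 2, the 2 without old_AL 4. The largest range of group means, that of Adipoq, was 3.62 and fell to 0.91 after normexp. The offset of 50 added there exceeds the processed Adipoq intensities of young_AL, 4.27 to 6.03, and such an offset shrinks log2 differences of dim probes.

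Over all genes, the count by age was 676, against 4 with 12 arrays, 1019 with array weights, 1067 after quantile normalization, 2968 after median centring, 3838 after normexp, 25 with the compared groups alone, 20 with the replicate block, and 70 to 402 with 1 array left out. By diet it was 222, against 1, 934, 393, 2107 and 4732 in that order, 128 without a filter, 370 with a filter on every array, 0 with the compared groups alone (limma), 1 with the block, and 1 (without old_CR 4) to 924 (without old_AL 2). By diet it was 2 without old_AL 4. For old_CR against young_AL it was 503, against 4 with 12 arrays, 1937 with weights, 226 without a filter, 879 with the compared groups alone, 17 with the block, and 42 (without young_AL 3) to 862 (without old_AL 4). The cause of these shifts was not tested.

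Among the 6 tested genes, signs that turned belonged to differences that had not passed the test. By age, Lpl became 0.070 with array weights and 0.13 after normexp, with -0.26 to 0.087 when 1 array was left out (0.087 without old_AL 4), and Lipe -0.075 with 12 arrays. Pparg by age became -0.18 with 12 arrays, -0.0086 with weights, -0.033 after quantile normalization, -0.094 after median centring and -0.0050 with the block, with -0.018 to 0.027 when 1 array was left out. By diet, with 12 arrays Retn became -0.49, Lpl 0.039, Fabp4 0.15, Lipe 0.28 and Pparg 0.17. After quantile normalization Lpl became 0.19, Lipe 0.068 and Pparg 0.024, and Pparg was 0.0021 with weights and 0.082 after median centring. With 1 array left out, Retn by diet ran from -0.11 (without old_AL 2) to 0.57, Pparg by diet from -0.034 to 0.0058, and Pparg in old_CR against young_AL from -0.027 to 0.0092. Adipoq kept its sign in all settings where it was tested. The replicate block ended the Adipoq call (adjusted p = 0.0809 by limma) and changed no other call among the 6 genes.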
